A study of Mus musculus with 9 samples.

Results

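The genes described here are the 78 mitochondrial ribosomal protein genes of the mouse that the deposited expression table lists under an Mrpl or Mrps symbol, chosen by that name alone, out of 24493 genes in the table. The study set escape e1 and escape e2, tumor cells derived from a parental line and resistant to immunotherapy, against that parental line, to find how their gene expression differs. All 3 are mouse pancreatic tumor cells of C57BL/6 background, grown in DMEM with 10% FBS and left untreated, with 3 RNA-seq libraries each. The labels say neither how e1 and e2 were made nor whether either is a single clone. They do not tie the libraries to separate cultures, and the p-values therefore measure only the spread between these libraries. Every value is a TPM (a level per length of transcript, scaled to a fixed total per library) or a difference in log2(TPM + 1), a scale that understates the change of genes at low levels.

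Mitochondria keep their own ribosome. It translates the few proteins encoded in mitochondrial DNA, all of them subunits of the oxidative phosphorylation complexes, and consists of a small subunit that reads the messenger RNA, a large subunit that forms the peptide bond, and RNAs made in the mitochondrion. All of its proteins are encoded in the nucleus, translated in the cytosol and imported; some descend from bacterial ribosomal proteins and others were added in mitochondria. By role, 51 of the members belong to the large subunit and 26 to the small one, a division that does not always follow the symbol, since Mrps18a and Mrps30 sit in the large subunit. The remaining member, Mrps36, carries a ribosomal name but is known as a component of the 2-oxoglutarate dehydrogenase complex. Of the members of the 2 subunits, 46 take the place of a bacterial ribosomal protein and 31 have no counterpart in that place and are called mitochondria-specific here. No transcript encoded in mitochondrial DNA is in the table used here.

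The libraries of a group were close to each other, with Pearson correlations of log2(TPM + 1) over all tested genes of 0.987 to 0.995, against 0.859 to 0.863 between e1 and parental libraries and 0.840 to 0.842 between e2 and parental libraries. Epithelial markers, which fit the labelled tumor type in parental cells, summed to 1181 TPM in e1, 1710 TPM in e2 and 9211 TPM in parental cells, and all 8 of them were lower in e1 and in e2. Fibroblast markers summed to 322 TPM in e1, 321 TPM in e2 and 0.869 TPM in parental cells, and of the 8 tested 7 were called higher in e1 and 8 in e2. The similar sums came from different genes. Col1a1 was at 103 TPM in e1 and 34.7 TPM in e2, Dcn at 0.15 and 35.5 TPM, and Pdpn, not called in e1, at 0.05 and 70.3 TPM. Immune and endothelial markers stayed at or below 1.82 TPM in sum in every library. The part of these differences in cell state in the results below was not tested, and in bulk RNA fewer cells of a type and less RNA per cell cannot be told apart. A small RNA gene, Mir6236, held between 3.92 and 9.48% of a library's TPM, and since TPM sums to a fixed total this share lowers or raises every other gene. The highest share was in parental library 1, where 53 of the 78 members had their lowest value of the group, and the lowest share was in parental library 2, where 53 members had their highest. In e1 library 1, with the highest share of e1 at 7.01%, 33 members had their highest value of the group and 34 their lowest. In e2 library 1, with the lowest share of e2 at 6.46%, 38 had their highest and 15 their lowest. Such counts were not made over all genes, and the part of Mir6236 in them was not tested.

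All 78 members were expressed in every library and passed the filter for testing. Their mean levels spanned 14.0 to 359 TPM in e1, 11.3 to 341 TPM in e2 and 15.4 to 330 TPM in parental cells, with medians of 79.5, 67.9 and 79.3 TPM for e1, e2 and parental cells in that order. The most abundant members over all libraries were Mrps6, Mrpl12 and Mrps21. Mrpl12, a protein of the stalk that recruits translation factors to the large subunit, led in parental cells at 329.8 ± 17.1 TPM (SD, n = 3), followed by Mrpl33 at 316 ± 30.5 TPM, a difference within their spread. In e1 Mrps6 led at 359 ± 24.8 TPM, within the spread of Mrps21 at 347 ± 48.5 TPM. In e2 Mrps6 led at 341 ± 8.64 TPM, followed by Mrps21 at 320.5 ± 9.87 TPM. The lowest members were Mrpl41, Mrps25 and Mrpl19. Mrpl41 stood at 14.0 ± 0.679 TPM in e1 and 15.4 ± 1.73 TPM in parental cells, and Mrpl19 at 11.3 ± 0.128 TPM in e2. The coefficient of variation within a group had a median of 5.49% over the members in e1, 3.07% in e2 and 5.38% in parental cells. The widest spread was that of Mrpl14 in e1, where library 1 read 70.5 TPM and libraries 2 and 3 read 109 and 107 TPM.

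Summed over all members, the mitochondrial ribosomal proteins made up 7317, 7471 and 7418 TPM in e1, 6821, 6717 and 6713 TPM in e2, and 7004, 7468 and 7204 TPM in parental cells. These sums are 0.740%, 0.675% and 0.723% of all TPM in e1, e2 and parental cells in that order. The e1 and parental libraries overlapped, while every e2 library lay below the lowest parental one.

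**Figure D1:**
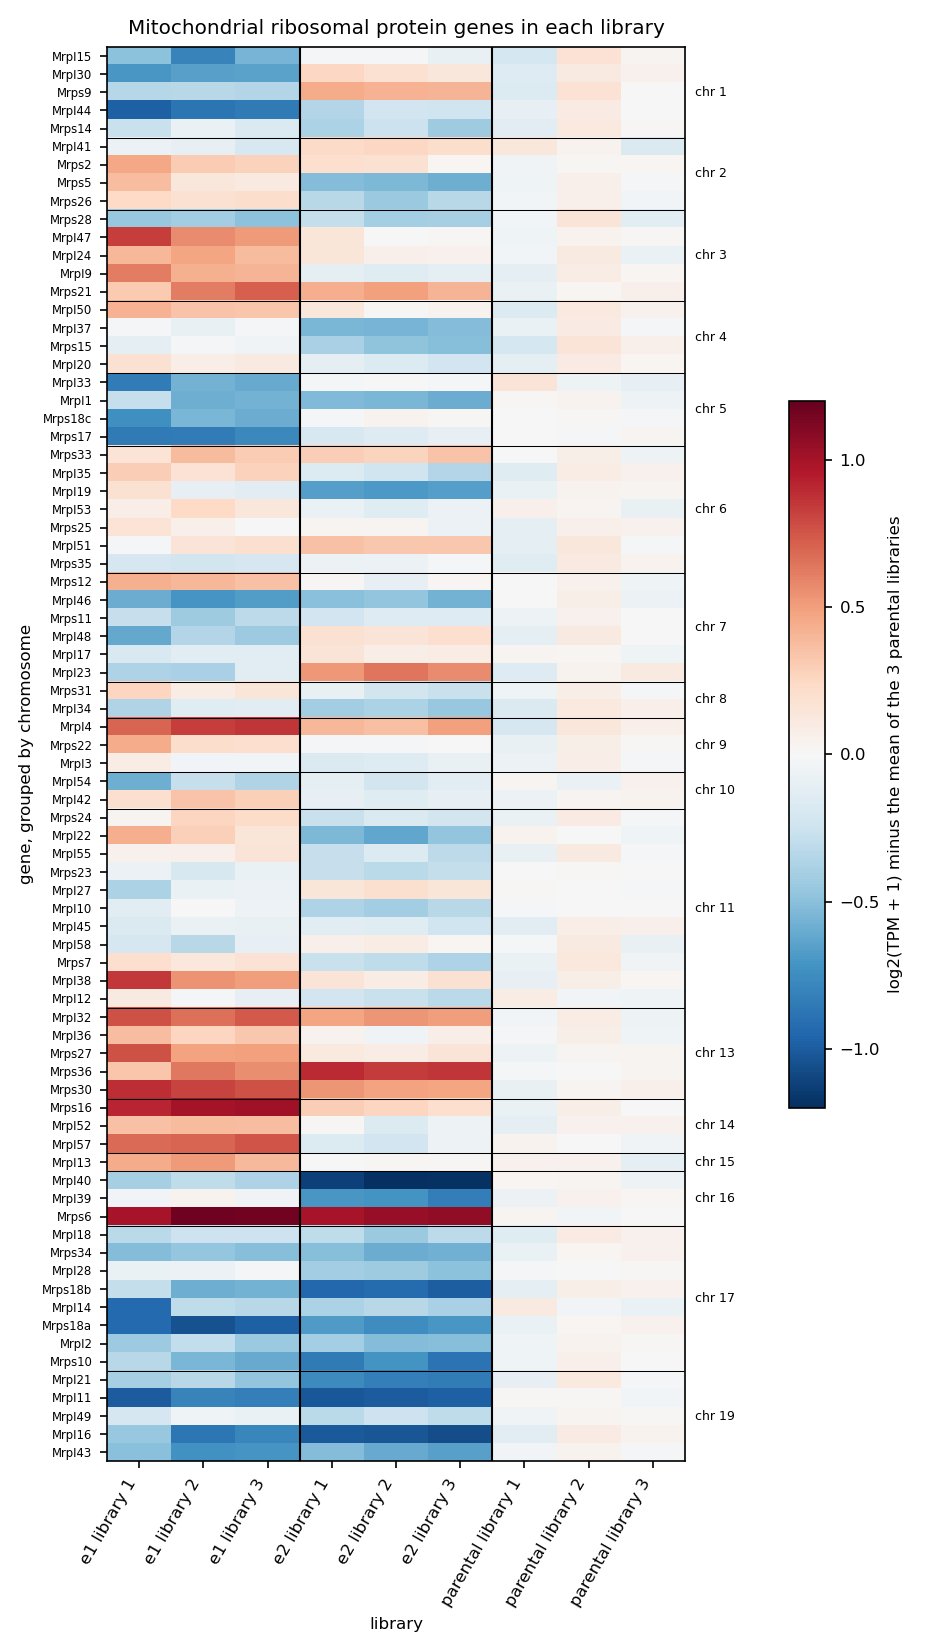
Heat map of the 78 members (rows, grouped by chromosome) in the 9 libraries (columns: e1, e2, parental), coloured by log2(TPM + 1) minus the mean of the 3 parental libraries; red is higher and blue lower. Members differ in direction within e1 and within e2, the e2 columns hold more blue than red, and neighbouring rows of chromosomes 5, 13, 14, 17 and 19 tend to share a colour in e1.

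Genes of this family are known for short promoters with sites for nuclear respiratory factor 1 (NRF1), for ETS family factors such as GABPA, and for YY1. Promoter sequences from RefSeq (GRCm38.p6, 250 bases before to 50 after the start) matched 69 of the 78 members. On either strand, the NRF1 motif GCGCANGCG was present in 23.2% of these members, against 14.0% of the 9811 promoters of tested genes and 6.47% of all 27025 promoters. The ETS motif CCGGAAG was present in 36.2% of members, against 18.8% of tested genes and 9.12% of all promoters. The YY1 motif AAGATGGC was present in 17.4% of members, against 4.83% and 2.88%. The E-box CACGTG, a site type that Myc can bind, was in 7.25% of members and 10.4% of tested genes, the SP family motif GGGCGG in 49.3% and 65.9%, and the NFY motif CCAAT in 39.1% and 39.3%. None of the motifs contains another, though the ETS motif ends with the letters that open the YY1 motif and the NRF1 motif can match both strands at nearly the same place. A match is a description of the letters only.

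The promoters of Mrpl32, Mrpl44 and Mrpl30 are printed because they carry the same NRF1 motif upstream of genes that moved in different directions in e1, and that of Mrps6 because it is the member with the largest rise. Each is the 120 bases before the annotated start, 5′ to 3′ on the gene's strand, with matches to the NRF1, ETS or YY1 motifs in capitals. They lie at chr13:14613038-14613157, minus strand for Mrpl32, chr1:79775898-79776017, plus strand for Mrpl44, chr1:37890357-37890476, plus strand for Mrpl30, and chr16:92058216-92058335, plus strand for Mrps6.
Mrpl32: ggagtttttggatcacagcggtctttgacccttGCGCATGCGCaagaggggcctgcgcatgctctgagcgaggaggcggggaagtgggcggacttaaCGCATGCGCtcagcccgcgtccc
Mrpl44: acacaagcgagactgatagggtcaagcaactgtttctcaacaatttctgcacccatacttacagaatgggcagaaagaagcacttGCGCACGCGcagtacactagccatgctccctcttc
Mrpl30: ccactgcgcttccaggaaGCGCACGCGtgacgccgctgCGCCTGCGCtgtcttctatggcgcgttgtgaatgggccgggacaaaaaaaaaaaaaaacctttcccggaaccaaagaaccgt
Mrps6: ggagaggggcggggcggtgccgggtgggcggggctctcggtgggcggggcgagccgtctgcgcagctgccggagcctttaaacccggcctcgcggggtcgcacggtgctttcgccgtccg
Mrpl32 was higher in both escape lines, Mrpl44 was lower in both, and Mrpl30 was lower in e1. In e2 Mrpl30 stood at 0.19 on the log2 scale, adjusted p = 0.0354 (limma), a call lost under 6 of 18 alternatives, with 0.09 under median-ratio scaling and 0.08 with the deposited rlog values. The Mrps6 stretch holds none of these 3 motifs. Motif shares of members that rose and of members that fell were close for NRF1 in e1, at 24.0% of 25 and 25% of 24, and in e2, at 33.3% of 12 and 27.03% of 37. For YY1 they were 28.0% and 8.33% in e1 and 8.33% and 18.9% in e2; these differences rest on few genes and were not tested.

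In e1 the mitochondrial ribosome did not move as a block: 28 members rose, 29 fell and 21 did not pass the test. Changes were small, with a median log2 fold change of -0.05 over the 78 members and of 0.02 over all 12769 tested genes, and a single member, Mrps6, changed by 1 or more on the log2 scale, as did 20.6% of all tested genes. Of the 26 small-subunit members 11 rose and 9 fell, and of the 51 large-subunit members 16 rose and 20 fell. The counts come from limma on log2(TPM + 1), with an adjusted p under 0.05 by the Benjamini-Hochberg method over all tested genes, and they stand beside 35.7% of all tested genes called higher and 34.9% called lower, so the members' shares of 35.9% and 37.2% were near the background.

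Mrps6, a small-subunit protein with a bacterial counterpart, showed the largest rise. It read 331, 374 and 373 TPM in e1, against 169.6, 162 and 166 TPM in parental cells, a log2 fold change of 1.11 ± 0.06, adjusted p = 1.19e-07 (limma; the error is the SE of the fit). All 3 e1 libraries stood above all parental ones. Mrps16, another small-subunit protein with a bacterial counterpart, was next with 169, 179 and 183 TPM in e1, against 84.9, 93.9 and 90.0 TPM in parental cells, a log2 fold change of 0.98 ± 0.06, adjusted p = 2.48e-07 (limma). Mrps30, a mitochondria-specific protein of the large subunit, read 79.9, 75.6 and 73.4 TPM in e1, against 40.0, 43.6 and 44.6 TPM in parental cells and rose by 0.82 on the log2 scale. Mrpl4, which lines the exit tunnel for the new peptide, read 91.6, 101 and 103 TPM in e1, against 48.9, 62.0 and 58.7 TPM in parental cells, a log2 fold change of 0.80. Mrpl32, which in yeast and mouse is matured by the mitochondrial m-AAA protease before it joins the large subunit, read 112, 104 and 109 TPM in e1, against 63.8, 69.7 and 62.6 TPM in parental cells, a log2 fold change of 0.72. The small large-subunit protein Mrpl57 read 32.1, 32.5 and 33.9 TPM in e1, against 20.3, 19.8 and 19.0 TPM in parental cells, a log2 fold change of 0.71. Groups of libraries did not overlap for any of these 6. Mrps21, named for its abundance, gained 0.55 on the log2 scale, and Mrps12, a protein of the decoding centre, 0.39.

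The largest fall in e1 was that of Mrps18a, a large-subunit protein, which read 52.3, 48.3 and 50.8 TPM in e1, against 95.5, 103 and 105 TPM in parental cells, a log2 fold change of -0.99 ± 0.06, adjusted p = 2.13e-07 (limma). Mrpl44, a large-subunit protein with a fold related to RNase III, read 19.9, 21.4 and 21.8 TPM in e1, against 37.3, 43.1 and 40.1 TPM in parental cells, a log2 fold change of -0.90 ± 0.07, adjusted p = 1.87e-06 (limma). Mrpl11, at the base of the stalk, read 16.7, 19.4 and 19.1 TPM in e1, against 34.8, 34.9 and 33.8 TPM in parental cells and fell by 0.87 on the log2 scale. In each of these 3 genes every e1 library lay below every parental library. Mrps17, of the small subunit, read 47.2, 47.6 and 49.6 TPM in e1, against 85.3, 84.3 and 87.4 TPM in parental cells, a log2 fold change of -0.82. Mrpl16, of the large subunit and close to the peptidyl transferase centre, read 75.8, 56.7 and 59.9 TPM in e1, against 94.3, 112 and 107 TPM in parental cells, a log2 fold change of -0.70. Mrpl33, second in abundance in parental cells, read 176, 212 and 206 TPM in e1, against 351, 303 and 294 TPM in parental cells, a log2 fold change of -0.67, and this was the largest loss of TPM of any member in e1. Groups of libraries did not overlap for these genes. The abundant Mrpl12 read 356, 324 and 308 TPM in e1 and 349, 321 and 319 TPM in parental cells, overlapping values with a log2 fold change of 0.00 ± 0.06, adjusted p = 0.964 (limma).

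**Figure D2:**
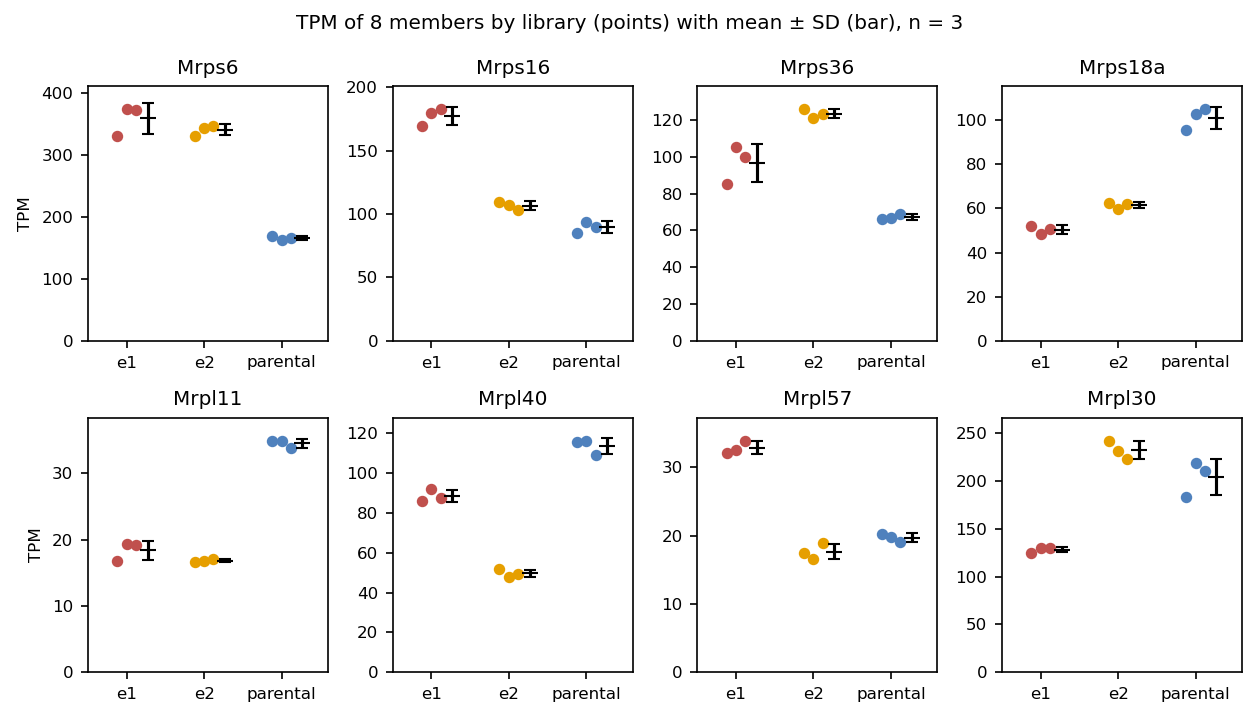
TPM of 8 members in the 3 libraries of e1, e2 and parental cells (points) with mean and SD (black bars); each panel has its own axis from 0. Mrps6 and Mrps36 were higher in both escape lines, Mrps18a, Mrpl11 and Mrpl40 lower in both, Mrps16 highest in e1, and Mrpl57 was higher and Mrpl30 lower in e1. In e2 both lay near parental cells, Mrpl57 called lower and Mrpl30 higher, calls lost under 10 and 6 of the 18 alternatives.

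In e2, set against the same parental libraries as e1, the members leaned downward: 40 fell, 13 rose and 25 did not pass the test. The median log2 fold change was -0.15 over the members, against 0.07 over all tested genes, and all but 3 members (Mrpl40, Mrpl16 and Mrps6) changed by less than 1 on the log2 scale, where 24.2% of all tested genes passed that size. Both subunits showed the lean, with 26 of 51 large-subunit members lower and 7 higher, and 14 of 26 small-subunit members lower and 5 higher. Over all tested genes, 40.8% were called higher and 32.7% lower (limma), against 16.7% and 51.3% of the members, a smaller share higher and a larger share lower than the background. Members with a bacterial counterpart (8 higher and 25 lower of 46) and mitochondria-specific ones (4 higher and 15 lower of 31) both leaned the same way. With the 10 highest genes of the table removed before rescaling, 18 members were higher and 34 lower, beside 5571 higher and 3962 lower of 12759 tested genes.

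The largest fall in e2 was that of Mrpl40, a mitochondria-specific large-subunit protein whose human gene lies in the region lost in DiGeorge syndrome. It read 51.6, 47.9 and 49.4 TPM in e2, against 115, 116 and 109 TPM in parental cells, a log2 fold change of -1.18 ± 0.05, adjusted p = 3.91e-08 (limma). Mrpl16 read 51.2, 50.5 and 49.3 TPM in e2, against 94.3, 112 and 107 TPM in parental cells, a log2 fold change of -1.03 ± 0.11, adjusted p = 1.36e-05 (limma). Mrpl11 read 16.6, 16.8 and 17.1 TPM in e2, against 34.8, 34.9 and 33.8 TPM in parental cells, a log2 fold change of -0.996. For these 3 genes every e2 library lay well below every parental one. Mrps18b, of the small subunit, read 65.6, 66.4 and 63.7 TPM in e2, against 117, 133 and 132 TPM in parental cells, a log2 fold change of -0.95. Mrps10 of the small subunit followed at -0.82 and Mrpl21 of the large subunit at -0.81, both again with e2 libraries below all parental ones. Mrpl12 read 281, 274 and 263 TPM in e2, against 349, 321 and 319 TPM in parental cells, a log2 fold change of -0.27 ± 0.06, adjusted p = 0.00354 (limma).

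Among the 13 members that rose in e2, Mrps6 led with 331, 345 and 348 TPM in e2, against 169.6, 162 and 166 TPM in parental cells, a log2 fold change of 1.03 ± 0.06, adjusted p = 1.71e-07 (limma). Mrps36, the 2-oxoglutarate dehydrogenase component, was next with 126, 121 and 123 TPM in e2, against 66.0, 66.9 and 68.9 TPM in parental cells, a log2 fold change of 0.86 ± 0.07, adjusted p = 4.03e-06 (limma); in e1 it rose by 0.51. Without Mrps36, 12 of 77 members rose and 40 fell in e2. Mrpl23, a large-subunit protein at the mouth of the exit tunnel, read 113, 123 and 117 TPM in e2, against 70.9, 81.2 and 84.9 TPM in parental cells, a log2 fold change of 0.58. Mrpl32 rose by 0.50, Mrps30 by 0.50, Mrps21 by 0.45 and Mrps16 by 0.25 on the log2 scale. Mrpl41, the lowest member in parental cells, read 18.1, 18.3 and 17.9 TPM in e2, against 16.8, 15.8 and 13.5 TPM in parental cells, with a log2 fold change of 0.23 ± 0.08, adjusted p = 0.027 (limma). That call was lost without parental library 3, where the value was 0.14, and without any of the e2 libraries. It was also lost under median-ratio scaling, at 0.14, and with the deposited rlog values, at 0.12.

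Between the escape lines, e2 lay below e1 for 42 members and above it for 19, while 17 did not pass the test. The median log2 fold change of e2 over e1 was -0.22 over the members and 0.09 over all tested genes, and no member reached a change of 1. Of all tested genes, 40.6% were called higher and 29.7% lower in e2 than in e1 (limma), against 24.4% and 53.8% of the members; in either direction these are 70.3% of all tested genes and 78.2% of the members. Large-subunit members were split 14 higher and 28 lower of 51, small-subunit members 4 higher and 14 lower of 26. The differences here use no parental library, but their SE and p-values come from the fit of all 9 libraries, parental ones included. This comparison also shares the e1 and e2 libraries with the comparisons above.

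Mrpl57 fell furthest, with 17.5, 16.6 and 18.9 TPM in e2, against 32.1, 32.5 and 33.9 TPM in e1, and a log2 fold change of -0.86 ± 0.06, adjusted p = 1.46e-06 (limma). Mrpl22, of the exit tunnel, read 77.5, 72.8 and 81.02 TPM in e2, against 153, 138 and 125 TPM in e1, and its log2 fold change was -0.83. Mrpl40 followed at -0.82, Mrps5 at -0.75, Mrpl39 at -0.74 and Mrps16 at -0.73. In all 6 the e2 libraries were below every e1 library. Highest in e2 relative to e1 were Mrpl23, with 113, 123 and 117 TPM in e2, against 60.7, 59.96 and 72.3 TPM in e1 and a log2 fold change of 0.87 ± 0.09, adjusted p = 1.89e-05 (limma), and Mrpl30, with 242, 231 and 223 TPM in e2, against 125, 129 and 130.3 TPM in e1 and 0.85. Mrps9 followed at 0.77, Mrps17 at 0.67, Mrpl33 at 0.66 and Mrpl48 at 0.65. For Mrpl33 and Mrps17 the e2 level lay nearer the parental level and e1 below both. Mrps17 was still called lower in e2 than in parental cells, by 0.15, adjusted p = 0.0204 (limma), a call lost under 4 of 18 alternatives. Mrps6 did not pass the test between the lines, at -0.07 ± 0.06, adjusted p = 0.282 (limma), but its call depended on the scaling: the difference was -0.17 under median-ratio scaling, -0.15 with the deposited rlog values and -0.13 without e1 library 1, and passed the test in each. Relative to parental cells, 9 members were called in opposite directions in e1 and e2, which is 11.5% of the members and 11.5% of all tested genes. Mrps26, a mitochondria-specific small-subunit protein, read 149, 144 and 147 TPM in e1, 100.05, 92.4 and 100.3 TPM in e2 and 124, 131 and 124 TPM in parental cells, and its log2 fold change was 0.21 in e1 and -0.37 in e2 against parental cells. Mrps9, a small-subunit protein with a bacterial counterpart, read 51.8, 52.2 and 51.3 TPM in e1, 90.4, 88.3 and 87.7 TPM in e2 and 58.6, 74.4 and 65.9 TPM in parental cells, with -0.34 in e1 and 0.42 in e2. Neither gene's e1 or e2 libraries overlapped the parental ones. Mrpl3 and Mrps25 were the 2 members that passed the test in none of the 3 comparisons.

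Mrps18a, Mrps18b and Mrps18c are paralogs that all descend from the bacterial protein S18 and occupy different places in the ribosome, Mrps18a in the large subunit and the others in the small one. In log2 fold change, Mrps18a was -0.99 in e1 and -0.71 in e2. Mrps18b was -0.48 in e1 and -0.95 in e2, so that it was the lower of these 2 paralogs in e2 relative to parental cells. Mrps18c, which takes the place of S18 in the small subunit, read 106, 121 and 118 TPM in e1, 176, 182 and 179 TPM in e2 and 178, 179 and 176 TPM in parental cells; it fell in e1 by 0.63 on the log2 scale and stood at 0.01 ± 0.06, adjusted p = 0.857 (limma) in e2. Mrps18a was higher in e2 than in e1 by 0.28 and Mrps18c by 0.64, while Mrps18b was lower in e2 by 0.47.

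Summed TPM of the large-subunit members was 4753 ± 36.9 in e1, 4335 ± 56.3 in e2 and 4891 ± 142 in parental cells (SD, n = 3 each). The small-subunit members summed to 2553 ± 48.2 in e1, 2292 ± 10.3 in e2 and 2267 ± 91.8 in parental cells. The ratio of large to small was 1.90, 1.87 and 1.83 in the e1 libraries, 1.92, 1.87 and 1.89 in the e2 libraries and 2.19, 2.14 and 2.14 in the parental libraries, so both escape lines lay below parental cells without overlap. Mrps6 alone added 193 TPM in e1 and 175 TPM in e2 over its parental mean, and Mrps21 added 112 TPM in e1 and 85.4 TPM in e2. Without Mrps6 the ratio was 2.13 to 2.18 in e1, 2.20 to 2.24 in e2 and 2.30 to 2.38 in parental cells. Without Mrps6 and Mrps21, a choice made after seeing the data, the ratio was 2.53 to 2.61 in e1, 2.64 to 2.67 in e2 and 2.58 to 2.68 in parental cells, and the ranges overlapped. Since both genes were picked for their rise, leaving them out cannot show what set the ratio. Large-subunit members also moved in e1, among them Mrpl33 by -118, Mrpl30 by -75.7, Mrpl52 by 67.5 and Mrpl13 by 65.7 TPM.

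**Figure D3:**
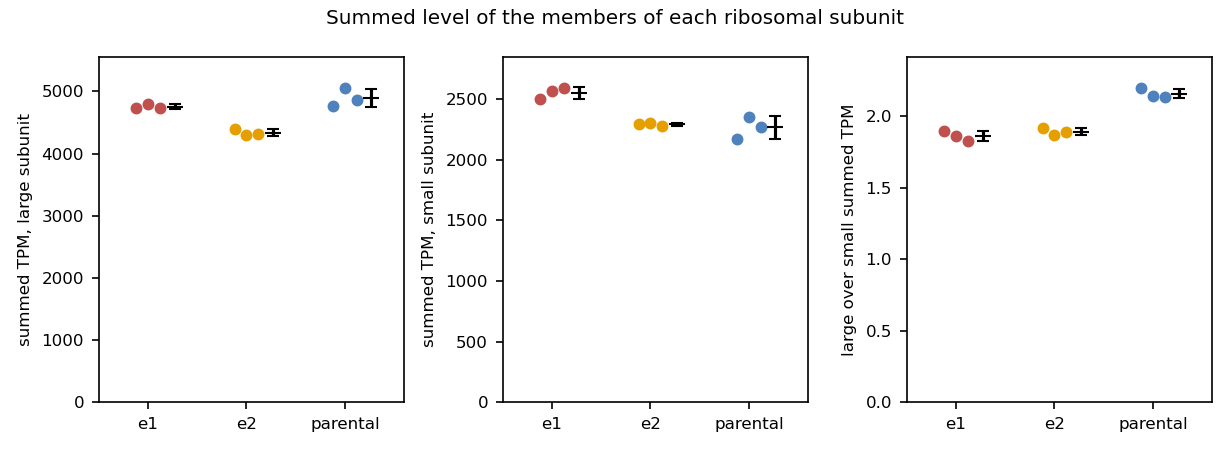
Summed TPM of the 51 large-subunit members (left), of the 26 small-subunit members (middle) and their ratio (right) in each library of e1, e2 and parental cells; points are libraries, black bars mean and SD, axes start at 0. The large-subunit sum was lowest in e2, the small-subunit sum highest in e1, and the ratio lower in both escape lines than in parental cells.

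On several chromosomes, members mostly changed in the same direction in e1, which was also that of the other genes there. The 78 members lie on 17 chromosomes (GENCODE vM21, GRCm38). On chromosome 13 all 5 members rose, on chromosome 14 all 3, and on chromosome 3 there were 4 that rose and 1 that fell, while on chromosome 17 there were 7 of 8 that fell, on chromosome 19 there were 4 of 5, on chromosome 5 all 4, and on chromosome 1 there were 4 of 5. The other tested genes of these chromosomes had median log2 fold changes in e1 of 0.48 on chromosome 13, 0.57 on chromosome 14, 0.34 on chromosome 3, -0.35 on chromosome 17, -0.38 on chromosome 19, -0.56 on chromosome 5 and -0.28 on chromosome 1. This did not hold everywhere. On chromosome 11, 3 of 11 members rose and 1 fell, with a member median of -0.004 against 0.18 for the other genes. Chromosomes 10 and 16 each had 1 member that rose and 1 that fell, and chromosome 8 had none called. The member of chromosome 15 rose by 0.45, where the other genes had a median of -0.01. Of the 57 members called in e1, 50 had the same sign as the median of the other genes of their chromosome. Of these 50, 3 lay on chromosome 2, where that median was only 0.0008. The matching share over all tested genes was not computed, here or in the comparisons below, and most genes of a chromosome have its median's sign by construction. The upper quartile of the other genes was -0.20 on chromosome 5 and -0.05 on chromosome 17, and the lower quartile 0.11 on chromosome 13 and 0.23 on chromosome 14. Across the 78 members, the Pearson correlation between a member's log2 fold change and its chromosome's median was 0.76 in e1, a description across genes that share chromosomes and libraries. Subtracting the median lowered the SD of the members' log2 fold changes to 0.31, against 0.47 before. DNA copy number was not measured, and what sets these chromosome medians was not tested.

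In e2 the members on chromosomes 17 and 19 fell, where the other genes also had medians below 0, and most of those on chromosome 11 fell, where the other genes did not. The correlation with the chromosome median was 0.49, subtraction lowered the SD to 0.37, against 0.42 before, and 29 of the 53 called members had the sign of their chromosome's median. All 8 members of chromosome 17 and all 5 of chromosome 19 fell in e2, with median log2 fold changes of -0.52 and -0.81, against -0.22 and -0.25 for the other genes of those chromosomes. On chromosome 11 there were 8 of 11 members that fell and none that rose, where the other genes had a median of 0.09. On chromosome 16 the other genes had a median of -0.65, and there Mrpl40 and Mrpl39 fell while Mrps6 rose. On chromosome 13, with a median of 0.76 for the other genes, 3 of 5 members rose. After subtraction of the chromosome's median, the members' median stood at -0.23 in e2 and -0.06 in e1. Between the escape lines, all 3 members of chromosome 14 were lower in e2 than in e1 and 4 of the 5 on chromosome 1 were higher, with chromosome medians of -0.46 and 0.29. Other chromosomes went against their median. On chromosome 13, 4 of 5 members were lower in e2 than in e1, where the other genes had a median of 0.26. All 4 on chromosome 4 were lower, with a median of 0.08, and 3 of 4 on chromosome 2, with 0.15. Of the 61 members called between the lines, 33 had the sign of their chromosome's median, and the correlation was 0.56. Of these 33, 8 lay on chromosome 11, where that median was only -0.0017. With the other genes within 5 Mb in place of the whole chromosome, a choice made after seeing the data, the correlation was 0.79 in e1 and 0.45 in e2.

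**Figure D4:**
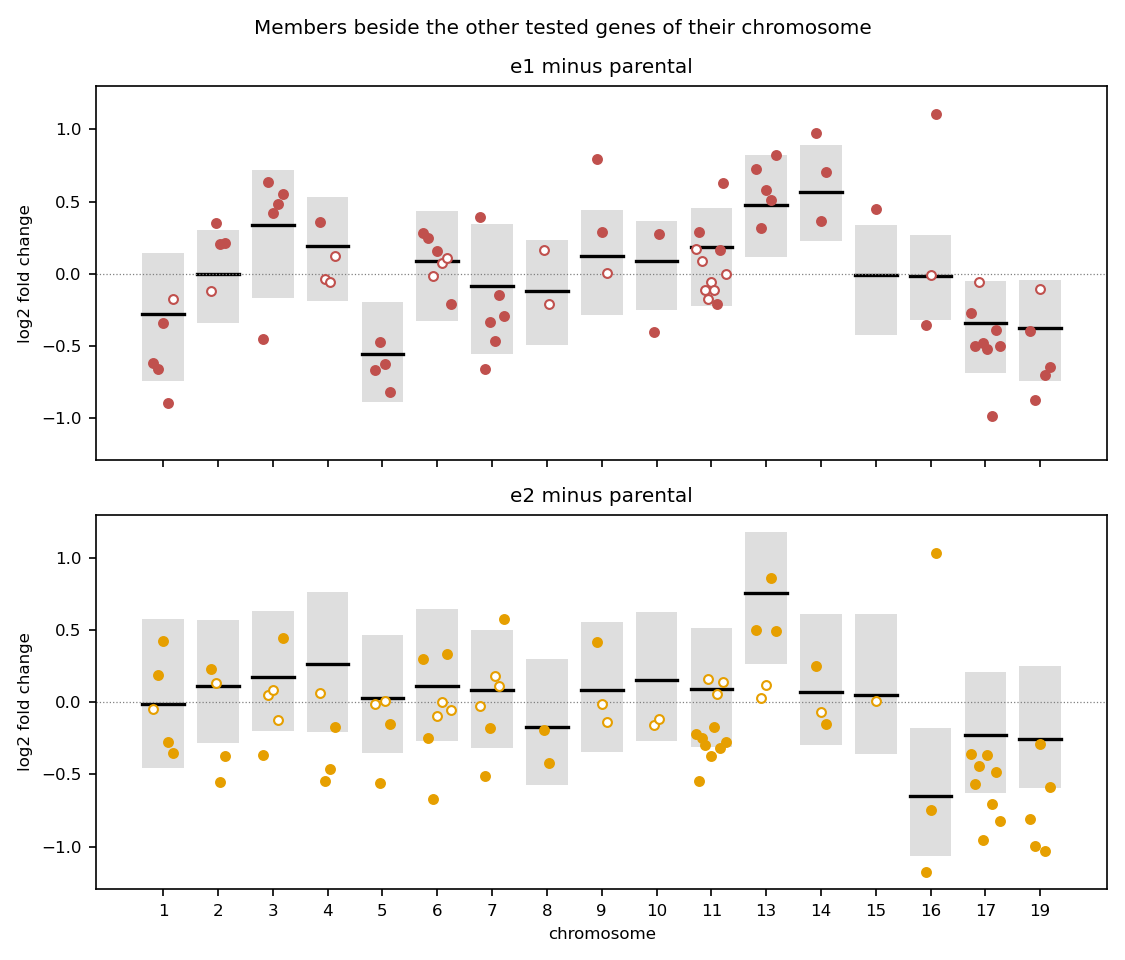
Log2 fold change of each member (points; filled where called, open where not) by chromosome, for e1 minus parental (top) and e2 minus parental (bottom); the black line is the median and the grey box the interquartile range of the other tested genes of the chromosome. In e1 the points tend to follow the black lines, though not on every chromosome, and in e2 most points lie at or below them, with Mrps6 on chromosome 16 far above.

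Several members share transcribed sequence with a neighbour, and how reads were divided between them is not given in the sources used here. Exons of 24 members overlap those of another gene in the table, 4 on the same strand and 21 on the opposite strand, and Mrpl46 and Mrps11 overlap each other. Mrps6 (chr16:92058336-92112227) shares 159 exonic bases on the same strand with Slc5a3, the myo-inositol transporter gene. Slc5a3 read 19.3, 26.2 and 26.3 TPM in e1, 27.6, 25.8 and 28.2 TPM in e2 and 4.24, 4.19 and 4.44 TPM in parental cells, log2 fold changes of 2.22 in e1 and 2.41 in e2. It rose with Mrps6 in both lines, and its TPM was far below that of Mrps6 in each. As TPM is a level per length of transcript, this does not compare numbers of reads. Mrps6 also shares 305 exonic bases on the same strand with Gm49711, which has no expression value here. The part of shared reads in the rise of Mrps6 was not tested. Among other same-strand neighbours, Nme3, which overlaps Mrps34, was at 9.93 TPM in e1, 20.1 TPM in e2 and 33.4 TPM in parental cells, with log2 fold changes of -1.69 and -0.70 in e1 and e2; Mrps34 itself was at -0.50 and -0.56. Mrpl46 and Mrps11 both fell in e1, by 0.66 and 0.34 on the log2 scale. Mrpl44 overlaps Wdfy1 and Mrpl48 overlaps Rab6a on the opposite strand, over 126 and 708 exonic bases in that order, and without the strand setting reads from those shared bases cannot be told apart. No pseudogene named after a member is in the table, while the annotation has 5.

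Mitochondrial ribosomal proteins with other symbols, 5 of which are in the table and not among the 78, gave 4 that rose and none that fell in e1, and 1 that rose and 2 that fell in e2 (limma), with all 5 lower in e2 than in e1. Of all tested genes, 35.7% rose and 34.9% fell in e1, 40.8% rose and 32.7% fell in e2, and 29.7% were lower in e2 than in e1, and 5 genes are too few to set against these shares. Dap3, a GTP-binding protein of the small subunit first described in cell death, was at 55.6 TPM in e1, 38.8 TPM in e2 and 32.7 TPM in parental cells, with log2 fold changes of 0.75 in e1 and 0.24 in e2. Ptcd3, which binds RNA in the small subunit, was at 0.38 in e1 and -0.26 in e2. Gadd45gip1, of the large subunit, stood at -0.03 ± 0.06, adjusted p = 0.696 (limma) in e1 and fell in e2 by 0.52.

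The counts of the next 4 lists stand beside the same shares of all tested genes, 35.7% higher and 34.9% lower in e1 and 40.8% higher and 32.7% lower in e2 (limma). The 15 translation factors of the mitochondrion showed 7 higher and 4 lower in e1 and 3 higher and 5 lower in e2. Tufm, the elongation factor that brings transfer RNA to the ribosome, was at 151 TPM in e1, 136 TPM in e2 and 192 TPM in parental cells and was called lower in both lines, with log2 fold changes of -0.35 and -0.49. Oxa1l, which inserts new peptides into the inner membrane at the exit tunnel, rose by 0.82 in e1 and fell by 0.24 in e2. Mtif3, an initiation factor, fell by 0.99 in e1 and by 0.58 in e2. Lrpprc, which stabilises mitochondrial messenger RNA, was at -0.23 in e1 and -0.25 in e2. Of 26 genes for assembly of this ribosome and modification of its RNA, 8 rose and 10 fell in e1 and 6 rose and 10 fell in e2; Gtpbp10, a GTPase of large-subunit assembly, was at 14.8 TPM in e1, 29.1 TPM in e2 and 34.0 TPM in parental cells and fell by 1.16 on the log2 scale in e1. Of 12 tested genes of mitochondrial transcription and DNA maintenance, 3 rose and 1 fell in e1 and 3 rose and 5 fell in e2, where Tfam, which packages mitochondrial DNA, fell by 0.31. The RNA polymerase gene Polrmt rose by 0.33 in e1. Of 26 protein import genes, 9 rose and 9 fell in e1, near the background, and 2 rose and 15 fell in e2; Tomm70a, a receptor of the outer membrane, was at 161 TPM in e1, 66.9 TPM in e2 and 168 TPM in parental cells, a log2 fold change of -1.32 in e2.

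Cytosolic ribosomal proteins and nuclear-encoded genes of oxidative phosphorylation moved apart from each other in e2. The second list was taken by the start of gene symbols, such as Nduf and Atp5, and may hold genes other than subunits. Of 80 tested cytosolic ribosomal protein genes, 3 rose and 73 fell in e2 (limma), with a median log2 fold change of -0.41, while 26 rose and 29 fell in e1 with a median of 0.00. They summed to 20.8% of all TPM in e1, 16.5% in e2 and 21.6% in parental cells. Of 85 tested oxidative phosphorylation genes, 53 rose and 9 fell in e2 with a median of 0.30, and 33 rose and 25 fell in e1 with a median of 0.09. Of all tested genes, 40.8% rose and 32.7% fell in e2, and 35.7% rose and 34.9% fell in e1. In e1, 32.5% of the cytosolic list rose and 36.25% fell, and 38.8% of the oxidative phosphorylation list rose and 29.4% fell, near those shares. The mitochondrial ribosomal proteins, at 13 higher and 40 lower, lay between these lists in e2. With median-ratio scaling, without the 10 highest genes and with the deposited rlog values, the e2 medians stayed below 0 for both kinds of ribosomal protein and above 0 for oxidative phosphorylation. The difference between the lists was not tested, and because TPM sums to a fixed total the fall of the abundant cytosolic list raises the share of all other genes.

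**Figure D5:**
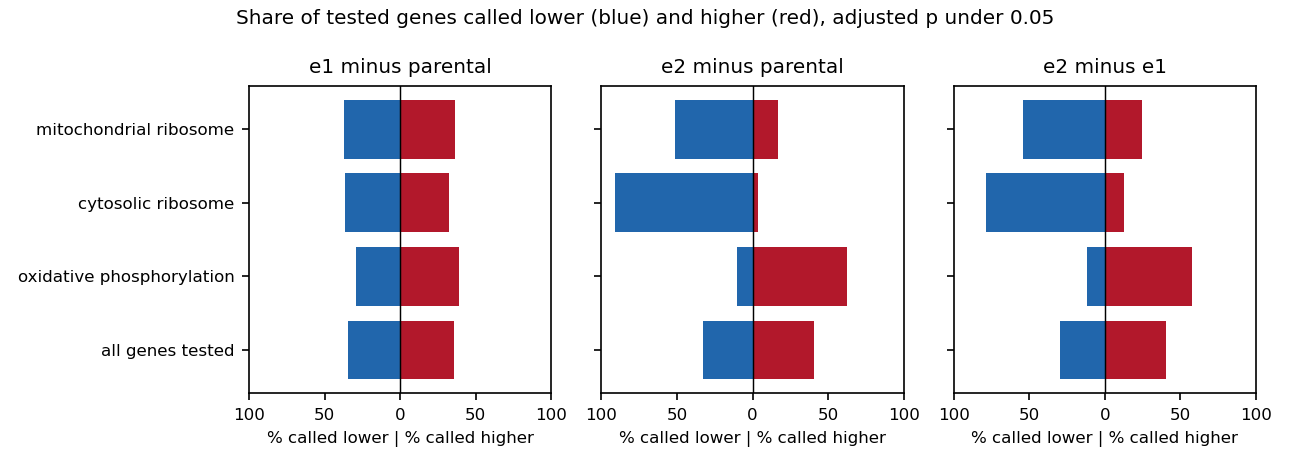
Share of tested genes called lower (blue, to the left) and higher (red, to the right), in percent, for e1 minus parental, e2 minus parental and e2 minus e1, in the mitochondrial ribosome (78 genes), the cytosolic ribosome (80), oxidative phosphorylation (85) and all tested genes (12769). In e1 the lists resemble all genes, and in e2 both ribosomes lean to lower and oxidative phosphorylation to higher.

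Several known regulators of nuclear genes for mitochondria differed between the lines. Myc, which drives ribosome production and many mitochondrial genes, averaged 459 ± 77.6 TPM in e1, 80.3 ± 1.38 TPM in e2 and 161 ± 10.2 TPM in parental cells (SD, n = 3), log2 fold changes of 1.49 ± 0.10, adjusted p = 9.53e-07 in e1 and -0.997 ± 0.10, adjusted p = 1.59e-05 in e2 (limma). Ppargc1a, a coactivator that drives mitochondrial biogenesis and oxidative metabolism, read 0.0725, 0.258 and 0.359 TPM in e1, 17.3, 17.2 and 17.4 TPM in e2 and 2.73, 1.22 and 1.56 TPM in parental cells, log2 fold changes of -1.18 in e1 and 2.73 in e2. Its relative Pprc1 was at 43.5 TPM in e1, 24.1 TPM in e2 and 45.3 TPM in parental cells and fell by 0.88 in e2, and Ppargc1b stayed below the filter. Nrf1, whose product binds the motif marked in the Mrpl32, Mrpl44 and Mrpl30 promoters above, was at 33.8 TPM in e1, 24.97 TPM in e2 and 26.4 TPM in parental cells; it rose by 0.35 in e1 and was at -0.08 ± 0.08, adjusted p = 0.425 (limma) in e2. Gabpa, the ETS family factor, fell by 0.75 in e1 and by 0.78 in e2 and did not differ between the lines, at -0.04, adjusted p = 0.619 (limma). Esrra, a nuclear receptor that works with Ppargc1a, fell by 1.42 in e1 and was at 0.10, adjusted p = 0.167 (limma) in e2. Yy1 rose by 0.35 in e1 and fell by 0.14 in e2. No relation between these levels and the members was tested.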

How the data were processed

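RNA of 3 escape e1, 3 escape e2 and 3 parental libraries was sequenced by a commercial company, per the labels' protocols, and groups were taken from the sample titles. The authors deposited TPM per gene, and a second table with rlog values on a log2 scale. Salmon, DESeq2 and mm10 come from, and are listed per, the submitters' processing notes; their versions, the annotation and the strand setting were not given in the sources used here. Read depth is unknown from TPM, and no counting intervals are given. All columns of both tables were matched to samples by title.

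From the deposited TPM, log2(TPM + 1) was computed and the test kept the 12769 of 24493 genes that reached 1 TPM in 3 or more of the 9 libraries. A single linear model with a mean for each of the 3 groups was used (limma 3.58.1, R 4.3.3, trend and robust empirical Bayes); tests were two-sided, adjusted by Benjamini-Hochberg over all tested genes and called at an adjusted p under 0.05. The fit was tested on simulated data. Alternatives were another pseudocount, other filters, other scalings, the deposited log2 rlog values, other fits and leaving out each library.

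Named members are, in each comparison, the 6 called members highest and the 6 lowest in log2 fold change, 8 members named whatever their result, the 3 most and 3 least abundant and those called in opposite directions in e1 and e2; members named for overlaps, for spread or for passing no test (Mrpl14, Mrps34, Mrpl46, Mrps11, Mrpl3) and other genes named for overlaps were chosen after their values were seen. Of the other lists, up to 3 called genes in each direction and comparison and 11 regulators and factors qualify, and the text names fewer. The members, the lists and the tests were chosen with earlier results of these data known. Gene positions are from GENCODE vM21, promoters from RefSeq GRCm38.p6, and the first listed promoter of a gene was used. Figures were drawn with matplotlib 3.10.9.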

Additional observations from a re-analysis of the deposited data

Results flagged for a closer look

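The 9 members below were called in opposite directions in e1 and e2, each relative to the same parental libraries, and each also passed the test of e2 minus e1 (limma), which their choice by opposite calls makes likely and which is therefore no further support. They are 11.5% of the members, and 11.5% of all 12769 tested genes were called in opposite directions in the same way, so their number is at the background. In e2 minus e1, 78.2% of the members and 70.3% of all tested genes were called in either direction. In log2 fold change, 6 were higher in e1 and lower in e2 than in parental cells, and e2 lay below e1 by -0.86 for Mrpl57, -0.83 for Mrpl22, -0.75 for Mrps5, -0.58 for Mrps26, -0.50 for Mrpl35 and -0.48 for Mrps7. Another 3 were lower in e1 and higher in e2, and e2 lay above e1 by 0.77 for Mrps9, 0.85 for Mrpl30 and 0.87 for Mrpl23. For Mrpl22, Mrps26 and Mrps9 both calls against parental cells held under every alternative run. For Mrpl57, Mrps5, Mrpl35, Mrps7, Mrpl30 and Mrpl23 at least 1 of the 2 calls was lost under some alternative. The cause of these differences was not tested.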

How the results depend on the processing

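Across 18 alternatives, the counts of members called higher and lower stayed within 1.5 times the counts given above, and no named result reversed. The members' median log2 fold change moved by more than the spread between libraries in e2 alone: for e2 minus parental it was -0.25 under median-ratio scaling and -0.21 with the deposited rlog values, against -0.15, and for e2 minus e1 it was -0.32 and -0.27, against -0.22. Same-numbered libraries of e1 and parental cells had correlations of deviations of -0.13, 0.03 and -0.02. For e2 and parental cells they were 0.04, 0.05 and 0.006, and for e2 and e1 0.05, 0.03 and -0.02. The main fit therefore used no pairing, but these values do not settle whether same-numbered libraries were prepared together. With the replicate block, 27 members were higher and 29 lower in e1, 13 higher and 36 lower in e2, and 17 higher and 44 lower in e2 relative to e1. Of all 12769 tested genes, the block gave 4404 higher and 4338 lower in e1, 5081 and 4082 in e2, and 5085 and 3655 in e2 relative to e1. Without e1 library 1, 29 and 30 members were called higher and lower in e1 and 19 and 44 in e2. The counts over all tested genes rose as well, to 5020 and 4675 in e1 and 5669 and 4577 in e2, against 5209 and 4174 in e2 with all libraries. Of 102 results of named members, 15 changed a call under some alternative: 10 calls were lost and 5 gained. In e1 the rise of Mrps7 was lost under 9 alternatives, among them the replicate block and 7 that left out a library, parental, e1 or e2. That of Mrps5 was lost under 5 (median-ratio scaling, rlog values, a fit of these 2 groups alone, and without parental library 1 or 3), that of Mrpl35 without parental library 1 or e1 library 3, and the fall of Mrpl23 without parental library 3 or e1 library 2. Mrpl41 became lower in e1 without parental library 3. In e2 the change of Mrpl57 was lost under 10 alternatives, among them the replicate block, the removal of the 10 highest genes and each parental library left out. Those of Mrpl30 and Mrpl41 were lost under 6 each, median-ratio scaling and rlog values included and for Mrpl30 the replicate block, that of Mrps17 under 4 (removal of the 10 highest genes and 3 single libraries) and that of Mrpl35 under 3 single libraries. Mrpl48 became higher in e2 under 5, the replicate block among them. In e2 minus e1 the difference of Mrpl16 was lost without e2 library 3, and Mrpl11, Mrps21 and Mrps6 became lower under median-ratio scaling, with rlog values and without e1 library 1. TPM holds no depth, so what depth limits is unknown.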
